A study of Arabidopsis thaliana with 12 samples.

Results

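Old leaves (L7) of Arabidopsis thaliana Col-0 were compared 48 h after a spray with ABA or with mock solution. The comparison takes in 6 of the 12 libraries of the study, chosen by their labels alone. There were 3 libraries of ABA-treated old leaves and 3 of mock-treated old leaves, each taken from leaf 7 of wild-type plants aged 28 to 35 days. The ABA spray held 500 µM ABA, and both sprays held 0.5% ethanol and a detergent, so the mock leaves were wetted too. The other 6 libraries, from leaf 12 of plants treated in the same way (young leaves), entered the same model, where they share the replicate term and the estimate of spread with the old leaves and so also bear on the fitted fold changes. Polyadenylated RNA was sequenced, and the reads on each gene were counted. A sample is a whole leaf, so that fewer cells of a type and less RNA per cell cannot be told apart. The labels do not say how many plants made up a library. The p-values rest on the spread between replicates over all 12 libraries of the model, young leaves included.

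Abscisic acid (ABA) is the plant hormone of drought and salt stress. It binds receptors of the PYR/PYL family, which then hold clade A type 2C protein phosphatases (PP2Cs) inactive. This frees SnRK2 kinases, which phosphorylate transcription factors such as the ABFs, and these bind short promoter elements with the core ACGTG that are known as ABA response elements. In leaves ABA is known for closing stomata and for inducing dehydrins and other protective proteins, and it is known to oppose salicylic acid (SA) signalling against biotrophic pathogens.

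Of the 32678 genes in the table, 18291 had a mean of at least 10 counts over the 12 libraries and were tested with edgeR's quasi-likelihood test. Levels are given as CPM, counts per 1000000 of a library total that was scaled by a TMM factor. A difference is given as a log2 fold change of ABA against mock, on which 1 is a doubling. A gene was called higher or lower when this value was beyond 1 in either direction and the p, adjusted over all tested genes by the Benjamini-Hochberg method, was below 0.01. By this rule 171 genes were higher (0.935% of those tested) and 366 were lower (2.0%), together 2.94%. All 537 called genes moved in the same direction in each of the 3 replicate pairs, as did 57.0% of all tested genes. In 167 of the higher and 322 of the lower genes the groups did not overlap, against 9.86% of all tested genes with every ABA library above and 9.59% with every ABA library below the mock libraries. The called changes were large, with a median log2 fold change of 2.06 among the higher and -2.48 among the lower genes, and 256 of the lower genes were beyond -2.

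The number of calls depended on the libraries included, which holds for every call given below. With all libraries of replicate 3 left out, 0 genes were called (edgeR, smallest adjusted p 0.0117, 3793 genes with an unadjusted p below 0.05). Without replicate 1 the counts were 3 higher and 35 lower, and without replicate 2 they were 92 and 208. Leaving out any single library of old leaves lowered the count, from 81 and 215 without mock replicate 2 to 7 and 66 without mock replicate 3 and 9 and 35 without ABA replicate 3. With the 6 old-leaf libraries alone in the fit they were 2 and 31. Scaling by library size alone shifted the median over all genes from 0.03 to 0.49 and turned the excess of lower calls around, to 208 higher and 160 lower genes. DESeq2 called 689 genes higher and 1023 lower (3.77% and 5.59% of those tested), and limma with voom called 199 and 469 (1.09% and 2.56%). In each of these settings the genes that were called in all libraries kept their direction wherever they were tested. Since all 537 had the same direction in each of the 3 replicate pairs, this was largely fixed by the selection.

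**Figure D1:**
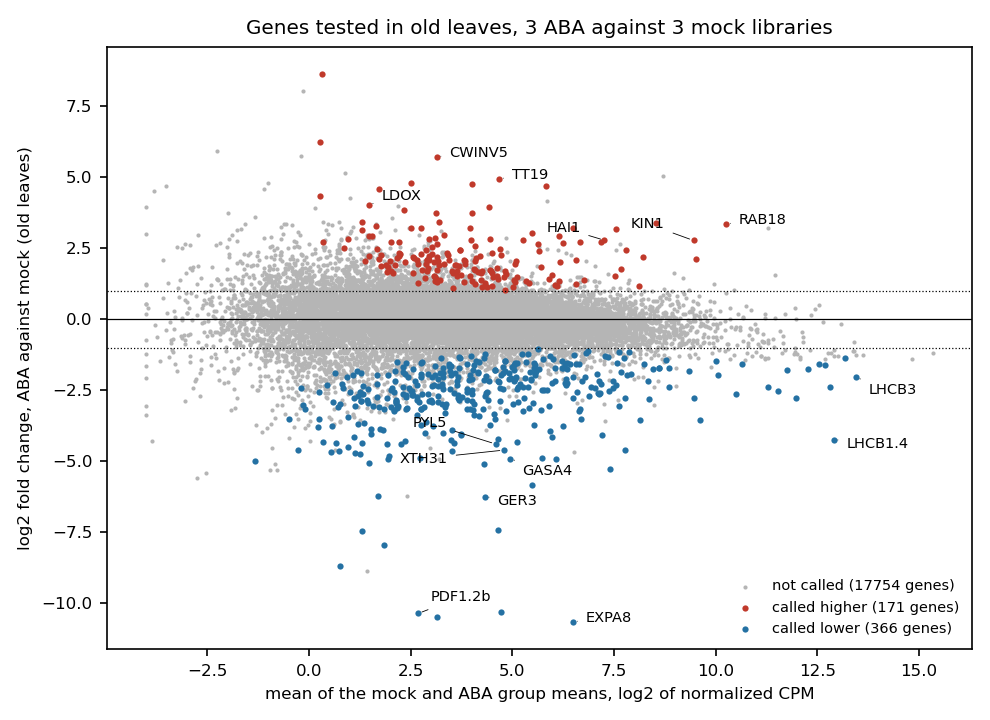
Each point is 1 of the 18291 tested genes, with its mean level in old leaves on the x axis (log2 of normalized CPM) and its log2 fold change of ABA against mock on the y axis. Red points are the 171 genes called higher and blue points the 366 called lower, and dotted lines mark log2 fold changes of 1 and -1. The most abundant called genes, at the right, are mostly blue and include LHCB3 and LHCB1.4, while RAB18 and KIN1 are abundant genes that were higher.

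The libraries differed in depth and composition. Counts on genes lay between 11811137 and 20383398 in the mock libraries and between 13403451 and 19399559 in the ABA libraries. The 10 most abundant genes held 14.7% to 19.7% of the counts in mock-treated and 8.92% to 12.5% in ABA-treated old leaves, with TMM factors of 0.612 to 0.952 and 0.840 to 1.21. Transcript length set the replicates apart as well. The rank correlation between length and a gene's deviation from its group mean was 0.51 in mock and 0.53 in ABA replicate 1. It was 0.030 and 0.24 in replicate 2, and -0.51 and -0.55 in replicate 3. Fold changes also moved with transcript length. In the tenth of tested genes with the shortest transcripts, with a median length of 769 bases, the median log2 fold change was -0.34, and in the tenth with the longest, at 3844 bases, it was 0.55. Median transcript lengths were 1952 bases for the higher, 1296 for the lower and 1758 for all tested genes. The part of length in the calls was not tested gene by gene, but with each library adjusted for length and GC content 343 genes were called higher and 404 lower. For this reason each group median below is followed by the median after that adjustment.

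**Figure D2:**
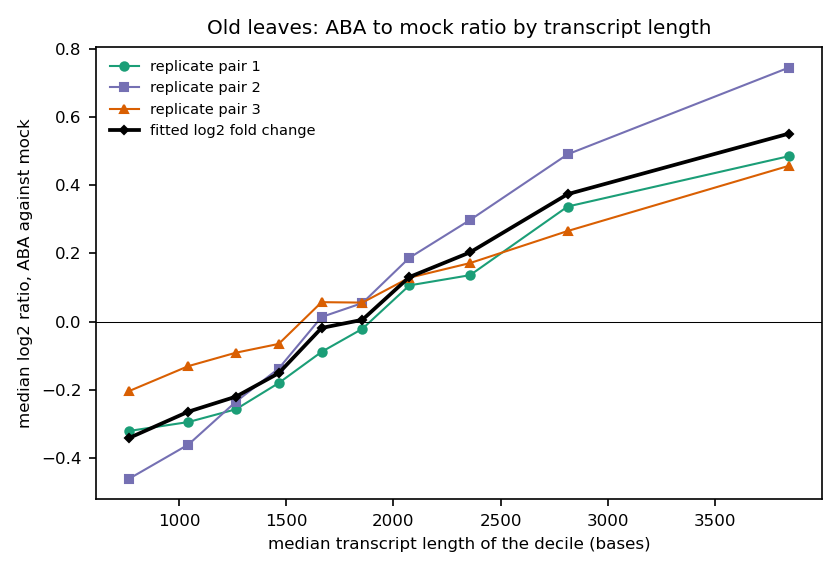
The x axis shows 10 groups of tested genes by transcript length, placed at the median length of each in bases, and the y axis shows the median log2 fold change of ABA against mock in old leaves. Lines stand for the 3 replicate pairs and for the fit. All 4 lines rise, from -0.34 to 0.55 in the fit.

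Marker genes of leaf cell types were checked in the same libraries. Summed mesophyll markers stood at 71040, 98720 and 141300 CPM in mock and at 39500, 42740 and 62370 CPM in ABA libraries, and they share members with the photosynthesis groups below. The guard cell markers summed to 787, 1193 and 425 CPM in mock and 361, 411 and 211 CPM in ABA. That sum is mostly TGG1, a myrosinase of guard cells and phloem-associated cells. Of the vasculature markers 1 of 8 was called, the xylem protease XCP1 (log2 fold change -1.64). Of the guard cell, epidermis and mesophyll markers none was called by edgeR, while DESeq2 called 2, 0 and 3 lower. The guard cell markers went both ways, with 2 of 8 higher and 4 lower at an unadjusted p below 0.05 (edgeR). At that level 1 epidermis and 4 mesophyll markers were lower and 0 higher. Defining markers were present in all 6 libraries except for the epidermal gene PDF1, which had 0 counts in mock replicate 1 and ABA replicate 3.

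Genes are described below in 29 groups by process, which together hold 503 genes, 459 of them tested. The groups and their members were drawn up from textbook roles, and earlier results of these data were known at that time. For each group the calls and the median are to be read against the background of 0.935% higher, 2.0% lower and a median of 0.03 over all tested genes. Counts of members without overlap stand against 9.86% of all tested genes with ABA above and 9.59% with ABA below. Counts of members that moved alike in all 3 pairs stand against 30.5% higher and 26.6% lower.

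**Figure D3:**
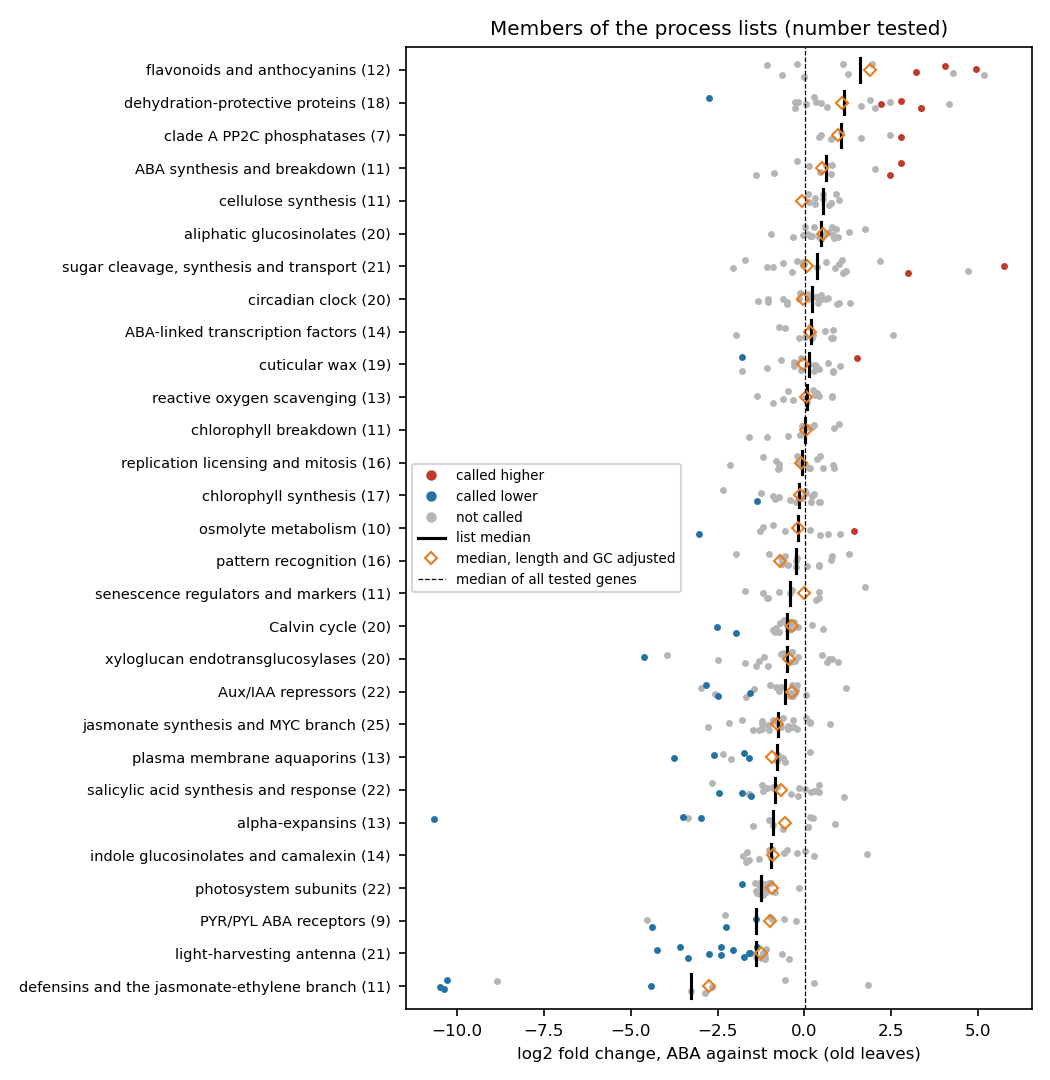
Each row is a process group with the number of its tested members, and each point is a member at its log2 fold change of ABA against mock in old leaves. Red and blue points were called higher and lower, grey points were not called, the black bar is the group median, the open diamond the median after adjustment for transcript length and GC content, and the dashed line the median of all tested genes. Medians run from -3.27 for defensins and the jasmonate-ethylene branch to 1.60 for flavonoids and anthocyanins.

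Some genes of the protective response and of ABA breakdown were higher after ABA, and several ABA receptors were lower. Dehydrins are hydrophilic proteins that guard cell structures when water is lost, and RAB18 (AT5G66400, chromosome 5, 26518277 to 26519447 in TAIR10.1) is the classical ABA-induced member. RAB18 stood at 95.2, 273 and 316 CPM in mock and at 1388, 2835 and 2474 CPM in ABA libraries. Every ABA library was above every mock library (log2 fold change 3.36, SE 0.35, adjusted p = 8.63e-04, edgeR), a rise of 10.3-fold from 228 ± 117 to 2232 ± 753 CPM (SD, n = 3). KIN1, a cold- and ABA-induced hydrophilic protein, was at 65.5, 256 and 251 CPM in mock and 862, 1181 and 1597 CPM in ABA (log2 fold change 2.78, adjusted p = 0.0051). Its neighbour KIN2 was tested and not called, and the handling of reads that fit both genes is not stated. The dehydrin LTI30 rose 4.63-fold, from 106 ± 13.2 to 484 ± 124 CPM (SD, n = 3; adjusted p = 0.00303).

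Of 18 tested dehydration-protective genes 3 were called higher and 1 lower, with a median of 1.13 (1.095 after adjustment for length and GC). In all 3 pairs 10 of the 18 were higher, against 30.5% of all tested genes. The largest log2 fold change in the group, 4.17, belonged to RD29B, the usual ABA reporter gene. RD29B stood at 3.16, 6.05 and 7.06 CPM in mock and at 95.3, 175 and 61.3 CPM in ABA libraries, without overlap, but missed the threshold at an adjusted p of 0.0143. The exception was COR15B, a chloroplast protein that stabilizes membranes in the cold. COR15B fell from 1204 ± 174 to 212 ± 150 CPM (SD, n = 3), a log2 fold change of -2.76 (adjusted p = 0.00135). Its close relative COR15A, at 0.49, was not called. Sets drawn by annotation had lower medians. Of 47 tested genes annotated as late embryogenesis abundant 0 were called higher and 1 lower, with a median of -0.10 (0.063 adjusted). These words also take in a family of hydroxyproline-rich glycoproteins, to which the lower gene, AT1G64065, belongs. The set therefore does not describe the protective proteins alone. Of 68 annotated to the response to water deprivation 2 were called higher and 7 lower (median -0.19, adjusted 0.0040). Of 66 annotated to the response to ABA 2 were called higher and 0 lower (median 0.28, adjusted 0.28). The sets for water deprivation and ABA come from short gene notes. Some of these notes give a number of processes in place of their names, so the sets can miss genes with many annotations.

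The promoters of 3 genes are shown, since ABA response elements are the known route from ABA to genes such as RAB18. RAB18 is the reference gene of the response, CWINV5 is the called gene with the largest rise and EXPA8 the called gene with the largest fall, both under the rule for named genes. Each run holds the 250 bases before the annotated gene start, 5′ to 3′ along the gene's own strand, from the TAIR10.1 assembly. Capitals mark ACGTGT or ACGTGG on either strand, so that ACACGT and CCACGT are matches too. RAB18 lies at chr5:26519448-26519697, CWINV5 at chr3:4530714-4530963 and EXPA8 at chr2:16950706-16950955, all on the minus strand.
RAB18: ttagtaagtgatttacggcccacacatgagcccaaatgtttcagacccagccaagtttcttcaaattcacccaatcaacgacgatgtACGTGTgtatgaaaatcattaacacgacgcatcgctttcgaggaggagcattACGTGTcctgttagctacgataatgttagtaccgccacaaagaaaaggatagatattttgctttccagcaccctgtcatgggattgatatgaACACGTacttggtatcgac
CWINV5: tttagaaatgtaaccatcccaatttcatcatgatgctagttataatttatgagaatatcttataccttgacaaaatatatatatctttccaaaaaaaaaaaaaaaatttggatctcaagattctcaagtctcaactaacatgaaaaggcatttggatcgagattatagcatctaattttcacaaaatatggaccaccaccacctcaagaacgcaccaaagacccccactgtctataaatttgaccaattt
EXPA8: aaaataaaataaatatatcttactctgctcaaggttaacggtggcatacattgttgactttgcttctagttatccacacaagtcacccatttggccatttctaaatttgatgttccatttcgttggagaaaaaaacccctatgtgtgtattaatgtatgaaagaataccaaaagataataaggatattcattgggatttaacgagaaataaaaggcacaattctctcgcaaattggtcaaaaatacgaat
The RAB18 run has 3 matches and the other runs have 0. Over the 18178 tested genes with such a run 17.3% held a match, as did 24.0% of the 171 higher and 21.1% of 365 lower genes. Among the dehydration-protective genes it was 11 of 18 (61.1%), but it was also 12 of 20 (60.0%) among the circadian clock genes, of which none was called by edgeR. Among groups with lower calls it was 9 of 21 (42.9%) for the light-harvesting antenna, 5 of 11 (45.5%) for the defensins and 0 of 13 for the plasma membrane aquaporins. ACGTGG overlaps the G-box CACGTG wherever the latter is followed by G. A match is a string of letters and no evidence of binding.

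The core of ABA signalling moved in both directions. The clade A PP2Cs, which shut off the SnRK2 kinases, had positive values throughout the 7 tested of 9 genes, with a median of 1.04 (0.96 adjusted), and 1 was called. That gene, HAI1, was at 18.1, 23.2 and 58.5 CPM in mock and 37.3, 339 and 447 CPM in ABA libraries. The lowest ABA library overlapped the mock range, and the log2 fold change was 2.78 (SE 0.46, adjusted p = 0.00582). HAI2, at 2.48 and without overlap, had an adjusted p of 0.0181. AHG3, the most abundant of the group, stood at 456 ± 156 and 787 ± 346 CPM (SD, n = 3) and was not called (log2 fold change 0.76, adjusted p = 0.184).

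The receptors went the other way. All 9 tested PYR/PYL genes of 14 had negative values, with a median of -1.40 (-0.99 adjusted), and 3 were called lower. In 8 of the 9 every pair was lower, against 26.6% of all tested genes, and in 6 the groups did not overlap. PYL5 was at 9.34, 96.4 and 33.9 CPM in mock and at 1.33, 1.88 and 1.51 CPM in ABA libraries. Its mock libraries varied widely and all lay above the ABA libraries (log2 fold change -4.40, SE 0.74, adjusted p = 0.00595). PYL8, an abundant receptor known for its role in root growth, fell 4.78-fold from 103 ± 36.8 to 21.7 ± 6.37 CPM (SD, n = 3; adjusted p = 0.00141). PYR1, the founding member, fell from 78.4 ± 11.8 to 29.4 ± 4.25 CPM (log2 fold change -1.40, adjusted p = 0.00934). With the adjustment for length and GC, PYR1 was at -0.99 with an adjusted p of 0.03 and was no longer called.

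The ABA 8′-hydroxylases of the CYP707A family break ABA down. CYP707A1 stood at 7.52, 12.9 and 9.47 CPM in mock and 72.2, 68.8 and 59.4 CPM in ABA, a 6.9-fold rise with narrow spread in both groups (adjusted p = 0.00801). CYP707A2 rose 5.56-fold from 7.38 ± 3.98 to 44.6 ± 36.6 CPM (SD, n = 3; adjusted p = 0.00482). Of the 11 tested genes of ABA synthesis and breakdown these were the ones called by edgeR, while DESeq2 and limma with voom each called 3 higher and 1 lower. The median was 0.63 (0.50 adjusted). NCED3, which makes the rate-limiting cut in synthesis, had a value of -0.88 (adjusted p = 0.164), and the xanthoxin dehydrogenase ABA2 one of -1.39 without overlap (adjusted p = 0.0113).

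Of 14 ABA-linked transcription factors none was called (edgeR, 3 at an unadjusted p below 0.05, and 1 called higher each by DESeq2 and by limma with voom). The median was 0.19 (0.17 adjusted). The SNAC-A factors, NAC proteins of stress and senescence, showed no common direction, with values from -1.98 for ANAC055 to 0.24 for ANAC072. ANAC072 was at 94.2, 51.3 and 135 CPM in mock and 45.7, 176 and 116 CPM in ABA, and ANAC019 and ANAC032 overlapped in the same manner. The kinase gene SNRK2.8 was listed at 4.16, 0.55 and 2.73 CPM in mock and 0.885, 0.134 and 0.622 CPM in ABA (log2 fold change -2.16, adjusted p = 0.0228), overlapping and not called.

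Among the immune groups, the calls in SA-linked genes and defensins were all lower. Of 22 tested genes of SA synthesis and response 3 were called lower and 0 higher, with a median of -0.84 (-0.66 adjusted). In 14 all 3 pairs were lower, and in 9 the groups did not overlap. CBP60g, a transcription factor that switches on SA synthesis, stood at 16.6, 13.7 and 47.3 CPM in mock and 4.23, 4.17 and 3.2 CPM in ABA libraries (log2 fold change -2.45, SE 0.46, adjusted p = 0.00925). All ABA values of CBP60g lay below the lowest mock value. PR5, a thaumatin-like protein and marker of SA, fell 3.46-fold from 25.6 ± 10.5 to 7.09 ± 1.17 CPM (SD, n = 3; adjusted p = 0.00899). DMR6, an SA 5-hydroxylase that limits immunity, fell from 50.9 ± 3.84 to 18.2 ± 6.8 CPM (adjusted p = 0.00511).

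The SA marker PR1 was low in these unchallenged leaves, at 13.5, 2.75 and 29.5 CPM in mock and 1.38, 1.7 and 0.799 CPM in ABA. The groups did not overlap, and the log2 fold change was -2.65 (SE 0.84) with an adjusted p of 0.0671, so that PR1 was not called by edgeR, whereas the adjusted p in DESeq2 was 0.00462. PR2, a glucanase, was at 76.3, 73.8 and 89.1 CPM in mock and 15.0, 37.4 and 27.3 CPM in ABA, again without overlap (log2 fold change -1.61, adjusted p = 0.0265, in DESeq2 0.00111). PBS3, which conjugates isochorismate to glutamate on the way to SA, had a value of -1.18 (adjusted p = 0.0387). The isochorismate synthase SID2 had one of -0.78 (adjusted p = 0.154), with overlapping groups in both genes. The receptors of SA were flat or slightly positive, with -0.16 for NPR1, 0.33 for NPR3 and 0.42 for NPR4, none of them called.

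WRKY factors act downstream of pathogen perception and of SA. Of 43 tested WRKY genes 4 were called lower and 0 higher, with a median of -0.58 (-0.68 adjusted). WRKY40 fell 5.4-fold, from 27.4, 11.9 and 98 CPM to 5.6, 3.99 and 9.24 CPM (adjusted p = 0.00579), and WRKY22 fell 6.33-fold. The cysteine-rich receptor-like kinases of the DUF26 class, many of them pathogen-induced, had 3 of 27 called lower, with CRK13 at -2.63 (adjusted p = 0.00582). Of 89 tested intracellular resistance genes of the TIR, NBS and LRR type 1 was called lower, and 61 had positive values, with a median of 0.31 that changed sign under the adjustment (-0.20). No member of the 16 pattern recognition genes was called (edgeR, 2 at an unadjusted p below 0.05, 1 called lower by DESeq2 and 0 by limma with voom). Their median was -0.25 (-0.70 adjusted). The co-receptor BAK1 stood at 79.7 ± 24.2 and 68.4 ± 20.4 CPM (SD, n = 3), a log2 fold change of -0.23 with an adjusted p of 0.469.

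Plant defensins of the PDF1.2 type are small antifungal peptides, and their genes are switched on by jasmonate and ethylene together through ORA59. Of 11 tested genes of this branch 4 were called lower, with a median of -3.27 (-2.75 adjusted) that stays the same with genes at 0 placed at their bound. PDF1.2c was at 2.96, 0.22 and 49.7 CPM in mock and had 0 counts in every ABA library, so that it was at least 317-fold lower by the floor of 3 counts over the group. PDF1.2b, at 1.75, 0.44 and 36.3 CPM in mock, had 0 counts in the ABA libraries as well and was at least 231-fold lower. PDF1.2a was at 19.2, 0.991 and 139 CPM in mock and at 0, 0 and 0.0888 CPM in ABA. Mock replicate 3 carried most of these transcripts and mock replicate 2 very few. The 3 genes are near-identical, and the handling of reads that fit several copies is not stated, so their split is uncertain. ORA59 itself fell from 5.78, 2.31 and 13.8 CPM to 0.0983, 0.493 and 0.178 CPM (log2 fold change -4.41, SE 0.83, adjusted p = 0.00984). The basic chitinase PR3 had a value of the opposite sign, 1.84 (adjusted p = 0.0258).

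The other branch of jasmonate signalling had no called gene among 25 tested (edgeR, 11 lower at an unadjusted p below 0.05, 6 called lower by DESeq2 and 1 by limma with voom). The median was -0.76 (-0.79 adjusted), and 15 genes were lower in all 3 pairs. AOS, which opens the jasmonate pathway, was abundant in both groups at 1758 ± 842 and 1362 ± 653 CPM (SD, n = 3), a log2 fold change of -0.38 (adjusted p = 0.44). The glucosinolate genes, which make sulfur-rich defence compounds, had 0 calls in both branches (edgeR, 6 of 20 aliphatic genes higher and 7 of 14 indole and camalexin genes lower at an unadjusted p below 0.05, 2 of each called in these directions by DESeq2, and 0 and 1 by limma with voom). Their medians were 0.49 for the aliphatic (0.54 adjusted) and -0.96 for the indole branch (-0.91 adjusted).

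**Figure D4:**
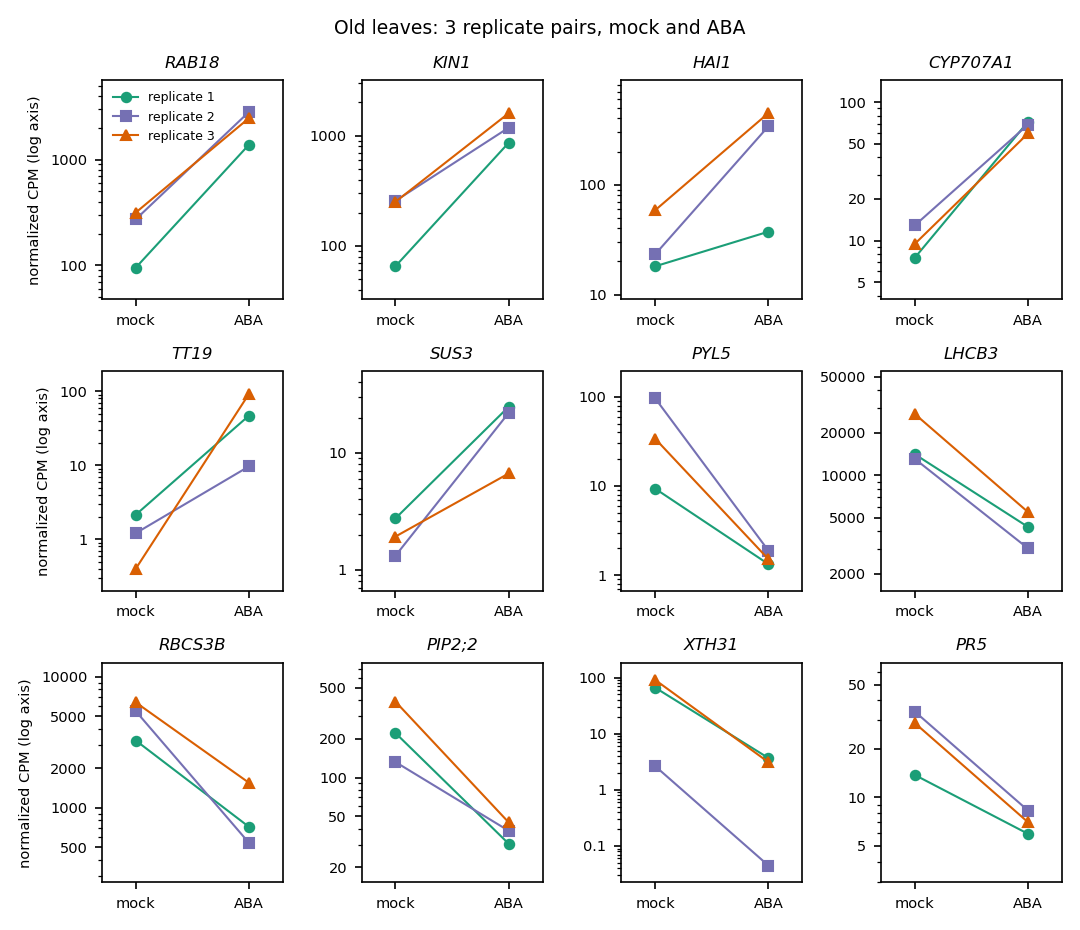
Each panel is a gene, with normalized CPM on a log10 axis. Lines join the mock-treated and the ABA-treated old-leaf library of the same replicate number. In all 12 panels the 3 lines run in the same direction, upward for RAB18, KIN1, HAI1, CYP707A1, TT19 and SUS3 and downward for PYL5, LHCB3, RBCS3B, PIP2;2, XTH31 and PR5.

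Genes of photosynthetic light capture fell together. The light-harvesting antenna proteins bind chlorophyll around photosystems I and II, and they belong to the most abundant transcripts of a leaf. Of 21 tested antenna genes 11 were called lower and 0 higher, with a median of -1.41 (-1.25 adjusted). All 21 were lower in each of the 3 pairs, and in 18 the groups did not overlap. Their sum was 185800, 227200 and 370800 CPM in mock and 79100, 76790 and 119100 CPM in ABA libraries. LHCB3, of the peripheral trimers of photosystem II, stood at 14080, 13060 and 27150 CPM in mock and 4303, 3033 and 5486 CPM in ABA (log2 fold change -2.05, SE 0.31, adjusted p = 0.00407). The minor antenna LHCB5 fell 2.59-fold from 13310 ± 2436 to 5145 ± 798 CPM (SD, n = 3; adjusted p = 0.00955).

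Within the antenna the sizes of the falls varied. LHCB1.4 was at 10140, 14230 and 19330 CPM in mock and at 870, 860 and 526 CPM in ABA, an 18.9-fold fall (adjusted p = 0.00129), whereas LHCB1.1 fell 5.27-fold. LHCB2.3 and LHCB2.1 fell 11.9-fold and 6.78-fold, and LHCB4.3 fell 10.2-fold from 43.1 ± 15.2 to 4.01 ± 0.322 CPM (SD, n = 3). The LHCB1 genes are near-identical, as are the LHCB2 genes. The handling of reads that fit several places is not stated, so the difference between copies is uncertain. LHCB4.1, a further minor antenna, fell 3.03-fold (adjusted p = 0.00984). No difference between members was tested.

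The subunits of the photosystems had negative values throughout, but few calls. Of 22 tested genes 1 was called lower, while 21 were lower in all 3 pairs, 16 without overlap, and 20 were lower at an adjusted p below 0.05, against 6.63% of all tested genes that were lower and 4.88% that were higher at that level. The median was -1.24 (-0.94 adjusted, with 6 called in that setting). PSAN, a luminal subunit of photosystem I, was the called gene, falling 3.46-fold from 5274 ± 2395 to 1584 ± 894 CPM (SD, n = 3; adjusted p = 0.00624). PSBR of photosystem II was at 9769, 11650 and 25740 CPM in mock and 4170, 4516 and 11090 CPM in ABA. Its value of -1.27 (adjusted p = 0.0266) was near the group median, but unlike most members it overlapped. The transcripts of these groups are short, with median lengths of 1282 bases for the antenna and 1006 for the subunits.

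Carbon fixation was touched in part. Of 20 Calvin cycle genes 2 were called lower, both of them small subunits of Rubisco, and the median was -0.49 (-0.36 adjusted). RBCS3B fell from 3254, 5448 and 6352 CPM to 714, 538 and 1548 CPM (log2 fold change -2.53, SE 0.34, adjusted p = 0.00236), and RBCS2B fell 3.92-fold. RBCS1A, the most abundant copy, went from 9204, 16890 and 14910 CPM to 6319, 6636 and 10710 CPM with overlap and was not called (log2 fold change -0.81, adjusted p = 0.108). The small subunit copies are alike, as the LHCB1 genes are, and the difference between them is uncertain in the same way.

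Chlorophyll metabolism and senescence showed little common change. Of 17 chlorophyll synthesis genes 1 was called, GUN4, a regulator of magnesium chelatase. GUN4 was at 265, 129 and 546 CPM in mock and 132, 50.2 and 169 CPM in ABA, overlapping between replicates but lower in each pair (log2 fold change -1.37, adjusted p = 0.00657). None of 11 chlorophyll breakdown genes was called (edgeR, 4 at an unadjusted p below 0.05, and 1 called lower by DESeq2 and by limma with voom), with PAO at 155 ± 39.3 and 175 ± 21.5 CPM (SD, n = 3). None of 11 senescence regulators and markers was called by edgeR, DESeq2 or limma with voom, and none had an unadjusted p below 0.05. Pairs disagreed there, with group medians of -1.08, 1.46 and -2.04 in replicates 1, 2 and 3, and the fitted median of -0.40 was 0.00186 after adjustment. SAG13, a senescence marker, was at 74.6, 8.92 and 51.2 CPM in mock and 16.7, 90.2 and 12.4 CPM in ABA libraries.

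Sugar and pigment genes were among the largest rises. CWINV5 (AT3G13784), annotated as a cell wall invertase, stood at 0, 0.991 and 0.161 CPM in mock and 24.9, 18.5 and 8.26 CPM in ABA (log2 fold change 5.73, SE 0.99, adjusted p = 0.00676). SUS3, a sucrose synthase, was at 2.75, 1.32 and 1.93 CPM in mock and 24.8, 22 and 6.66 CPM in ABA, a 7.87-fold rise without overlap (adjusted p = 0.00481). These were the called genes among 21 tested of sugar cleavage, synthesis and transport, whose median was 0.35 (0.07 adjusted). CWINV1, a major cell wall invertase of leaves, had a value of opposite sign, -2.06 (adjusted p = 0.0172).

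Anthocyanins are red pigments made from flavonoids by a short chain of late enzymes. Of 12 tested genes 3 were called higher, with a median of 1.60 (1.88 adjusted), and in 7 every ABA library lay above every mock library. TT19, a glutathione transferase that carries anthocyanins to the vacuole, was at 2.15, 1.21 and 0.401 CPM in mock and 47.1, 9.68 and 92.6 CPM in ABA (log2 fold change 4.95, SE 0.91, adjusted p = 0.00856). LDOX, anthocyanidin synthase, went from 0.202, 0 and 0.802 CPM to 10.7, 0.941 and 4 CPM (log2 fold change 4.04, adjusted p = 0.00595). The glucosyltransferase gene AT4G14090 rose 9.35-fold (adjusted p = 0.00444). In TT19, LDOX and AT4G14090 the ABA library of replicate 2 was the lowest of its group. The early enzymes were mixed, with 1.95 for CHS (adjusted p = 0.0134) and -1.09 for CHI (adjusted p = 0.0467).

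Several genes of growth and wall loosening fell strongly. Expansins loosen cell walls during growth. EXPA8 (AT2G40610) was at 169, 14.4 and 357 CPM in mock and 0.197, 0 and 0 CPM in ABA libraries, with an adjusted p of 0.00236. EXPA1 was at 216, 35.4 and 326 CPM in mock and 6.59, 8.29 and 29 CPM in ABA (log2 fold change -3.51, adjusted p = 0.00802), and EXPA3 fell 7.91-fold. In EXPA8, EXPA1 and EXPA3 mock replicate 2 was the lowest mock library and still lay above the ABA libraries. Of 13 tested expansins 3 were called lower, with a median of -0.92 (-0.57 adjusted).

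The xyloglucan endotransglucosylases, which cut and rejoin wall xyloglucan, had 1 of 20 called. XTH31 was at 66.1, 2.64 and 90.7 CPM in mock and 3.69, 0.0448 and 3.11 CPM in ABA, overlapping but lower in each pair (log2 fold change -4.61, SE 0.61, adjusted p = 0.00236). Mock replicate 2 stood apart in the opposite direction in other members. XTH4 was at 56.7, 1720 and 80.3 CPM in mock and 331, 370 and 154 CPM in ABA, so that its log2 fold change of -0.19 (adjusted p = 0.916) turned positive without that library, at 1.89. XTH6 showed the same shape, at 32.2, 404 and 42.8 CPM in mock and 54.9, 48.7 and 33.2 CPM in ABA. None of 11 cellulose synthesis genes was called by edgeR, DESeq2 or limma with voom (1 at an unadjusted p below 0.05), and their median of 0.54 went to -0.07 with the adjustment for length and GC. Among 88 tested pectin-modifying enzymes 8 were called lower and 1 higher.

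Lower calls among the auxin-linked genes described here lay mostly in the SAUR family. Of 44 tested genes annotated to the response to auxin 2 were called lower and 0 higher, with a median of -0.20 (-0.16 adjusted). The SAUR proteins promote cell expansion by keeping plasma membrane proton pumps active, and the small SAUR transcripts are classical early auxin responses. Of 41 tested SAUR genes 15 were called lower and 0 higher, with a median of -2.30 (-1.69 adjusted, with 11 called lower and 1 higher). In 22 every ABA library was below every mock library, and in 1 above, against 9.59% and 9.86% of all tested genes. AT4G38860 was at 90.7, 21.4 and 193 CPM in mock and 3.49, 0.448 and 7.11 CPM in ABA (log2 fold change -4.88, SE 0.45, adjusted p = 6.11e-04). SAUR24 fell 19.2-fold (adjusted p = 6.96e-04). Many of the called SAUR genes lie close together, on chromosome 1 and, with SAUR24, on chromosome 5. The handling of reads that fit several places is not stated, so the split between such neighbours is uncertain, and their calls may not be separate. Like the photosystem transcripts they are short, with a median length of 817 bases.

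The Aux/IAA proteins repress auxin responses and are themselves auxin-induced. Of 22 tested 3 were called lower, with a median of -0.56 (-0.36 adjusted), and 16 were lower in all 3 pairs. IAA7 was at 81.5, 110 and 105 CPM in mock and 18.2, 17.8 and 16.4 CPM in ABA, among the tightest differences here (log2 fold change -2.49, SE 0.23, adjusted p = 6.11e-04). IAA19 fell 7.14-fold and IAA8 2.94-fold. The gibberellin-regulated GASA genes split, with GASA6 at 213, 194 and 579 CPM in mock and 4.28, 4.93 and 18.3 CPM in ABA, a 38.5-fold fall (adjusted p = 0.00182), and GASA4 at -4.92 (adjusted p = 4.21e-04). GASA3 rose 27.9-fold, from 0.393 ± 0.282 to 11 ± 7.5 CPM (SD, n = 3; adjusted p = 0.0051).

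Plasma membrane aquaporins are the water channels of the PIP family. Of 13 tested 4 were called lower, with a median of -0.80 (-0.93 adjusted), and 12 were lower in all 3 pairs, 8 without overlap. PIP2;2 was at 222, 132 and 390 CPM in mock and 30.5, 38.5 and 44.7 CPM in ABA (log2 fold change -2.59, SE 0.40, adjusted p = 0.0042). Its close copy PIP2;3 fell 13.4-fold, and the split of reads between these genes is uncertain. PIP1;2 fell from 717 ± 165 to 214 ± 42.3 CPM (SD, n = 3; adjusted p = 0.00182), and PIP2;1 fell 3.02-fold (adjusted p = 0.00582). PIP1;3, at 353, 1621 and 669 CPM in mock and 170, 165 and 135 CPM in ABA, did not overlap but varied among the mock libraries (adjusted p = 0.0177).

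Of the cuticular wax genes 1 of 19 was called higher and 1 lower, with a median of 0.14 (-0.034 adjusted). CER1, needed for wax alkanes that limit water loss, rose from 94.8 ± 25.5 to 276 ± 68.2 CPM (SD, n = 3; log2 fold change 1.52, adjusted p = 0.00596), but had an adjusted p of 0.0674 with the adjustment for length and GC. MYB30, a factor of wax synthesis and of pathogen-induced cell death, fell 3.46-fold (adjusted p = 0.00479). KCS19, a fatty acid elongase outside that group, rose from 1.41, 5.28 and 1.85 CPM to 33.4, 46 and 40.4 CPM (log2 fold change 3.95, SE 0.45, adjusted p = 0.00129).

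In osmolyte metabolism the calls were split. P5CDH, which breaks down proline, rose 2.67-fold (adjusted p = 0.00494), and GOLS3, a cold-induced galactinol synthase, fell 8.23-fold (adjusted p = 0.00394). Groups with 0 calls by edgeR were replication licensing and mitosis (16 tested, 1 at an unadjusted p below 0.05, 0 in DESeq2), the circadian clock (20 tested, 6 at an unadjusted p below 0.05, 1 in DESeq2) and reactive oxygen scavenging (13 tested, 4 at an unadjusted p below 0.05, 1 in DESeq2), all with 0 in limma with voom. Their medians lay between -0.07 and 0.22 (-0.11 and 0.032 adjusted). FSD1, an iron superoxide dismutase, was at 565, 655 and 712 CPM in mock and 181, 185 and 434 CPM in ABA, without overlap (log2 fold change -1.37, adjusted p = 0.0435).

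Several of the largest changes lay outside these groups. DAA1, a P-loop nucleoside triphosphatase by its annotation, was at 6.45, 4.73 and 1.93 CPM in mock and 172, 97.3 and 56.7 CPM in ABA (log2 fold change 4.69, adjusted p = 0.00686). AHP4, a phosphotransfer protein of cytokinin signalling, rose 14.5-fold from 0.65 ± 0.117 to 9.43 ± 1.55 CPM (SD, n = 3; adjusted p = 6.82e-04). ANNAT1, a calcium-binding annexin and an abundant transcript, rose from 280 ± 135 to 1180 ± 212 CPM (adjusted p = 0.00479). AT2G37870, a lipid-transfer protein by its annotation, rose from 74.8 ± 54.0 to 669 ± 250 CPM without overlap (SD, n = 3; log2 fold change 3.38, adjusted p = 0.0055). Of 44 tested genes with that annotation 3 were called higher and 1 lower (median -0.13, adjusted 0.27). Other rises were seen in AT4G01985, an uncharacterized protein (log2 fold change 4.76), AT5G35660, a glycine-rich protein (4.61), and the kinase gene WNK9 (4.35), the last of them at or below 3.64 CPM in every library. The smallest adjusted p of all genes, 3.31e-05, belonged to AT3G55646, which fell from 33.4, 18.8 and 98.6 CPM to 0.246, 0.134 and 0.355 CPM. AT5G22580, a protein with a stress-responsive A/B barrel domain, fell 57.5-fold from 87.9 ± 4.61 to 1.51 ± 0.838 CPM (SD, n = 3; adjusted p = 3.26e-04). GER3, a germin-like protein of the extracellular matrix, went from 2.62, 109 and 7.06 CPM to 0.197, 0.762 and 0 CPM (adjusted p = 0.00856), with mock replicate 2 far above the other mock libraries. Further large falls were those of AT1G20070, uncharacterized (log2 fold change -5.10), the SAUR gene AT4G34790 (-5.07), AT1G15125, a methyltransferase by its annotation (-4.92), and AT3G60290, an oxygenase by its annotation (-4.91). The groups did not overlap in these 4 genes, nor in the 3 rises before them.

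The young leaves received the same treatment. Their libraries were in the same model, shared its replicate term and helped to set which old-leaf genes were called, so that the 2 sets of fitted values are not separate measures. Of the genes called in old leaves, 169 of 171 higher and 363 of 366 lower genes had the same sign there, as did 77.5% of all tested genes. RAB18 had a log2 fold change of 4.68 in young leaves and EXPA8 one of -5.80. The difference between the responses of old and young leaves was called for 0 genes (edgeR interaction, smallest adjusted p 0.0793, 1358 genes with an unadjusted p below 0.05). KCS19 had 3.95 in old and 0.84 in young leaves, a difference of -3.11 (young minus old) with an adjusted p of 0.34. PR1 had -2.65 in old and 0.77 in young leaves (adjusted p of the difference 0.558), and PDF1.2b had -10.37 and -1.04 (0.334).

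**Figure D5:**
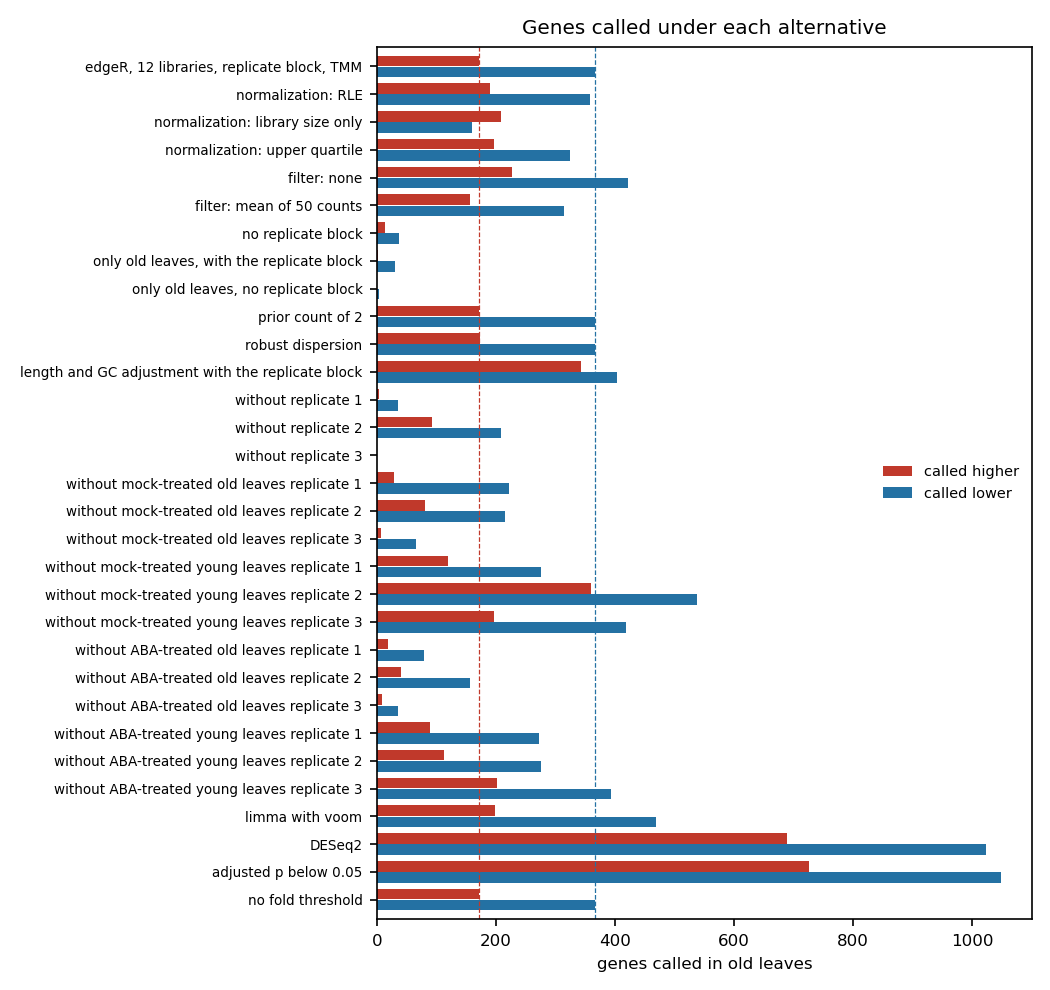
Bars give the number of genes called higher (red) and lower (blue) in ABA-treated against mock-treated old leaves, on the x axis, under each setting named on the y axis. Dashed lines mark the 171 and 366 genes called with all libraries in 1 model and the replicate block, and leaving out replicate 3 gives 0 and 0.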

How the data were processed

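Per the submitters' processing notes, reads were handled with CASAVA 1.8.2, cutadapt 1.5, TopHat2 2.0.10 and HTSeq 0.6.1 on TAIR10. The authors deposited whole-number counts per gene for 12 libraries. How HTSeq treated strand, overlaps and reads that fit several places is not stated here. HTSeq's 5 summary lines, 5.97% to 10.3% of reads in old leaves, were left out. Symbols, lengths and promoters came from TAIR10.1 (31912 IDs matched).

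In R 4.3.3, edgeR 4.0.16 fitted 4 groups with the replicate number as a block to all 12 libraries (TMM factors, prior counts 0.125 for fold changes). The experiment was repeated 3 times and the study's model holds the replicate. Old-leaf libraries of the same number deviated together (r = 0.45, 0.217 and 0.615, others -0.506 to 0.101). The deviations of the 3 libraries from their group mean cancel out, so these values are not independent of each other. limma 3.58.1 (voom) and DESeq2 1.42.0 were alternatives, besides other filters, scalings, thresholds and leave-outs. 

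Named are the 10 largest called rises and falls with over 3 counts in the lower group, the 5 most abundant called genes per direction, up to 4 called members or the most abundant of each list, and genes the paper names. Others were chosen after their values were seen. Members, lists and alternatives were chosen with earlier results of these data known. The authors' infection and RT-PCR data were not analysed here.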

Additional observations from a re-analysis of the deposited data

How the results depend on the processing

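The calls were not stable. Each of the 537 called genes kept its sign under every alternative in which it was tested. All 537 had the same sign in each of the 3 replicate pairs, so this was largely fixed by the selection and does not measure stability. RLE or upper-quartile factors, other filters, a prior count of 2, a robust dispersion, no fold threshold and limma with voom left both counts within 1.5 times of 171 and 366. Without the replicate block 13 genes were called higher and 37 lower, with old leaves alone 2 and 31, and with old leaves alone and no replicate block 0 and 3 (edgeR, 2733 with an unadjusted p below 0.05). Library size alone gave 160 lower, DESeq2 gave 689 and 1023, an adjusted p below 0.05 gave 725 and 1048, and the length and GC adjustment with the replicate block gave 343 higher. Leaving out replicates or single libraries gave 0 to 359 higher and 0 to 538 lower, the lowest without replicate 3 and the highest without replicate 2 of mock-treated young leaves. Beyond those named with the counts of called genes, replicate 1 of mock-treated old leaves (29 and 222), replicates 1 and 2 of ABA-treated old leaves (19 and 79, 41 and 156) and replicates 1 and 2 of ABA-treated young leaves (89 and 112 higher) moved a count by over 1.5 times. The cause was not tested.

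Of the 103 named genes 17 changed sign in some setting, none of them called. With library size alone the log2 fold change was 0.23 for BAK1, 0.095 for AOS, 0.15 for AOC2, 0.37 for XTH4 and 0.32 for CDKB2;1. With the length and GC adjustment it was 0.081 for XTH4, -0.071 for CESA3, -0.10 for COB, 0.020 for CDKB2;1 and -0.0016 for TOC1. With old leaves alone and the replicate block it was -0.70 for SAG13, 0.53 for XTH4 and -0.023 for ANAC102, and with limma and voom -0.48, 0.45 and -0.011. SAG13 was at -0.18 with no replicate block, and at -0.18 also with old leaves alone, and ANAC102 at -9.4e-05 with a filter at a mean of 50 counts. Leaving out libraries gave -0.62 to 0.78 for ANAC072, -1.08 to 0.94 for ANAC019, -0.57 to 0.67 for ANAC032, -0.66 to 0.35 for ANAC102, -0.36 to 0.41 for BCAT4, -0.28 to 0.60 for PEN2, -0.044 to 0.39 for PAO, -0.41 to 1.07 for SAG21, -2.12 to 1.94 for SAG13, -1.35 to 1.89 for XTH4, -0.26 to 0.72 for COB and -0.63 to 0.26 for CDKB2;1. Of the 29 process groups 12 had a median that changed sign in some setting, among them senescence, chlorophyll breakdown, cellulose synthesis, the clock and mitosis. Genes with few counts, such as CWINV5 or the defensins, are limited by depth, and their fitted fold changes depend on the prior count.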

Other observations

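The following groups were picked by words of the annotation after their values had been seen, and are given as values. Of 75 tested genes of the nucleolus and rRNA processing 11 were called higher and 0 lower, with a median log2 fold change of 0.78 (0.72 with the adjustment for transcript length and GC content), against 0.935% higher over all tested genes. NUC-L1, a nucleolin of ribosome production, was at 177, 179 and 151 CPM in mock and 370, 342 and 434 CPM in ABA libraries. The groups did not overlap (log2 fold change 1.17, SE 0.19, adjusted p = 0.00546, edgeR). FIB2, a fibrillarin that methylates rRNA, rose 3.87-fold from 5.51, 3.41 and 3.53 CPM to 12.6, 14.8 and 20 CPM, and the pseudouridine synthase NAP57 rose 2.79-fold. Of 61 RNA helicases 6 were called higher and 0 lower (median 0.63, adjusted 0.32). Pentatricopeptide repeat proteins, which edit and process organelle RNA, had a median of 0.99 (0.76 adjusted), with 221 of 233 tested genes positive and 2 called higher (0.858%, against 0.935% of all tested genes). The cytosolic ribosomal proteins had 0 of 203 called (edgeR, 55 at an unadjusted p below 0.05, 7 called by DESeq2, 0 by limma with voom), with a median of 0.22 (0.50 adjusted, with 4 called higher in that setting).

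ADP-glucose pyrophosphorylase makes the first committed step of starch synthesis. Of 6 tested genes annotated to it 3 were called higher, all for large subunits, and 2 had negative values (median 0.94, adjusted 0.92). The summed level of these genes changed little, at 351, 286 and 295 CPM in mock and 388, 280 and 307 CPM in ABA libraries. APL3 was at 21.6, 8.37 and 11 CPM in mock and 56.4, 31.2 and 42 CPM in ABA (3.26-fold, adjusted p = 0.00695, edgeR), APL4 rose 4.05-fold and APL2 2.47-fold. Of 3 tested water channels of the vacuole 2 were called lower. GAMMA-TIP was at 447, 403 and 709 CPM in mock and 25.7, 41.2 and 67.9 CPM in ABA, an 11.7-fold fall (adjusted p = 6.11e-04), and TIP2;2 fell 4.52-fold. Of 43 tested histone genes 3 were called lower, with a median of -0.85 (-0.56 adjusted) and 30 lower in all 3 pairs. Of 61 integrase-type DNA-binding factors, the class that holds the ERF proteins, 4 were called lower (median -0.80, adjusted -0.84).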
